A study of Homo sapiens with 18 samples.

Results

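Matrix metalloproteinases (MMP), ADAM and ADAMTS proteases, ADAMTS-like proteins (ADAMTSL) and tissue inhibitors of metalloproteinases (TIMP) were followed across 18 RNA-seq libraries of LX-2 cells given thrombin or no thrombin. Members were chosen by symbol alone: MMP, ADAM, ADAMTS or ADAMTSL followed by a number, with a closing letter allowed for MMP, and TIMP1 to TIMP4. The count table held 74 such symbols among 28278. Of these, 46 passed a low-count filter that left 15353 genes to test, and "tested members" means these 46.

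LX-2 is an established human hepatic stellate cell line, and stellate cells are the liver cells that lay down matrix in fibrosis. Per the labels, 180000 cells per well were grown for 48 h and kept without serum for 1 h. Thrombin, the protease that clots fibrinogen, was then added at 1 U/mL, controls stayed in serum-free medium, and RNA was taken 4, 24 or 48 h later. This gave 6 groups of 3 libraries, control and thrombin at each time, and all 6 groups, controls included, were without serum. Each group holds libraries numbered 12, 13 and 14 in their titles. No label says that they came from separate cultures, so p-values measure only library-to-library spread, which may be technical.

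MMPs are zinc proteases, secreted or held in the plasma membrane, that cut collagens, gelatin and other matrix proteins once their inhibitory propeptide is removed. ADAMs are membrane proteins, many of which release the outer parts of growth factors, cytokines and receptors, and ADAMTS proteases are secreted and cut proteoglycans, procollagens or von Willebrand factor. TIMPs occupy the active site of these enzymes. In liver fibrosis, activated stellate cells are known as a source of both the proteases and their inhibitors.

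Depth lay between 14431044 and 23270601 counts per library, of which the 74 symbols took 0.343% to 0.418%. Levels are TMM-scaled CPM, counts relative to library size. Stellate and mesenchymal markers were present: VIM averaged 3593 CPM, COL1A1 2274 CPM, COL3A1 277.5 CPM and PDGFRB 66.5 CPM. Levels were lower for COL1A2 (18.0 CPM), ACTA2 (11.4 CPM), HAND2 (7.11 CPM), RGS5 (4.78 CPM) and DES (2.97 CPM). LUM, DCN and LRAT were each under 1 CPM. The summed level of the 12 markers, of which VIM and COL1A1 had the highest means, lay between 5760 and 7100 CPM in every library. Of 6 hepatocyte markers, 5 were under 1 CPM (ALB, APOA1, TTR, CYP3A4 and APOB), with TTR at 0 in all libraries, and the sum ranged from 3.37 to 6.86 CPM. Endothelial markers summed to between 15.5 and 30.0 CPM, with LYVE1 at 0 and CDH5 and STAB2 under 1 CPM. Macrophage markers summed to between 68.1 and 103 CPM, with CD163 and MARCO under 1 CPM. Cholangiocyte markers summed to between 134 and 278 CPM, with KRT19, EPCAM and CFTR under 1 CPM. Single genes made up most of these sums: VWF averaged 14.5 CPM, CD68 75.0 CPM and SOX9 169.8 CPM, so the sums do not measure a cell type. At 4 h none of the tested markers of these other cell types was called. At 24 h KRT7, CDH5 and KDR were called higher and PECAM1 lower in thrombin. Of the 9 tested stellate markers, COL1A1 was called lower at 4 h and 0 were called higher. At 24 h, 3 of these 9 were called higher and 1 lower (ACTA2, HAND2, COL1A1 and COL1A2 together). Over all genes, 6.29% were called higher and 5.52% lower at 4 h, and 9.05% and 8.54% at 24 h. The part of all these markers in the members' results was not tested. In bulk RNA, fewer cells of a type and less RNA per cell cannot be told apart.

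The groups are named as labelled throughout. Between the libraries labelled thrombin 4 h and those labelled control 24 h, 11 of 15353 genes (0.0716%) and 0 members were called by edgeR's quasi-likelihood test with Benjamini-Hochberg adjustment, which is the test behind each call in the text (adjusted p under 0.05). In that comparison 3 members had an unadjusted p under 0.05, and DESeq2 called 31 genes and 0 members. Libraries labelled control 4 h and thrombin 24 h differed in 513 genes (3.34%), 4 of them members (MMP9, MMP17, MMP19 and TIMP3). Among all genes called at both 4 h and 24 h, 948 of 961 had opposite signs at the 2 times. Whether the 4 h labels are right was not tested, and each direction given at 4 h rests on them.

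Levels of different genes were compared as CPM per kilobase of exonic length. This length covers all annotated exons of a gene and not the transcript expressed, so the comparison is only approximate. ADAM10, for example, averaged 171.9 CPM over 16168 bases of exons, and TIMP1 261.2 CPM over 1541. On the per-kilobase scale the inhibitors stood at the top of the tested members. TIMP2 averaged 205.5 ± 14.4 (SD over the 18 libraries), TIMP1 169.5 ± 16.6 and TIMP3 82.7 ± 26.7. The ranges of TIMP2 and TIMP1 overlapped (185.5 to 228 and 150.6 to 209), so their order is not beyond the spread between libraries. ADAM9, a membrane protease of the meltrin group, followed at 56.6 ± 8.76, with a range that overlapped that of TIMP3. ADAM15 (34.9), the membrane-type MMP14 (29.3), the gelatinase MMP2 (27.5) and the interstitial collagenase MMP1 (26.0) came next, with overlapping ranges. The gelatinase MMP9 averaged 18.6 ± 7.09. ADAMTS12 had the highest mean of the ADAMTS genes, 13.3 ± 2.49, with a range that overlapped that of ADAMTS6 (mean 11.3). ADAMTSL3, at 0.0886, had the lowest mean of the tested members, with a range that overlapped that of ADAMTS17 (mean 0.0913).

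**Figure D1:**
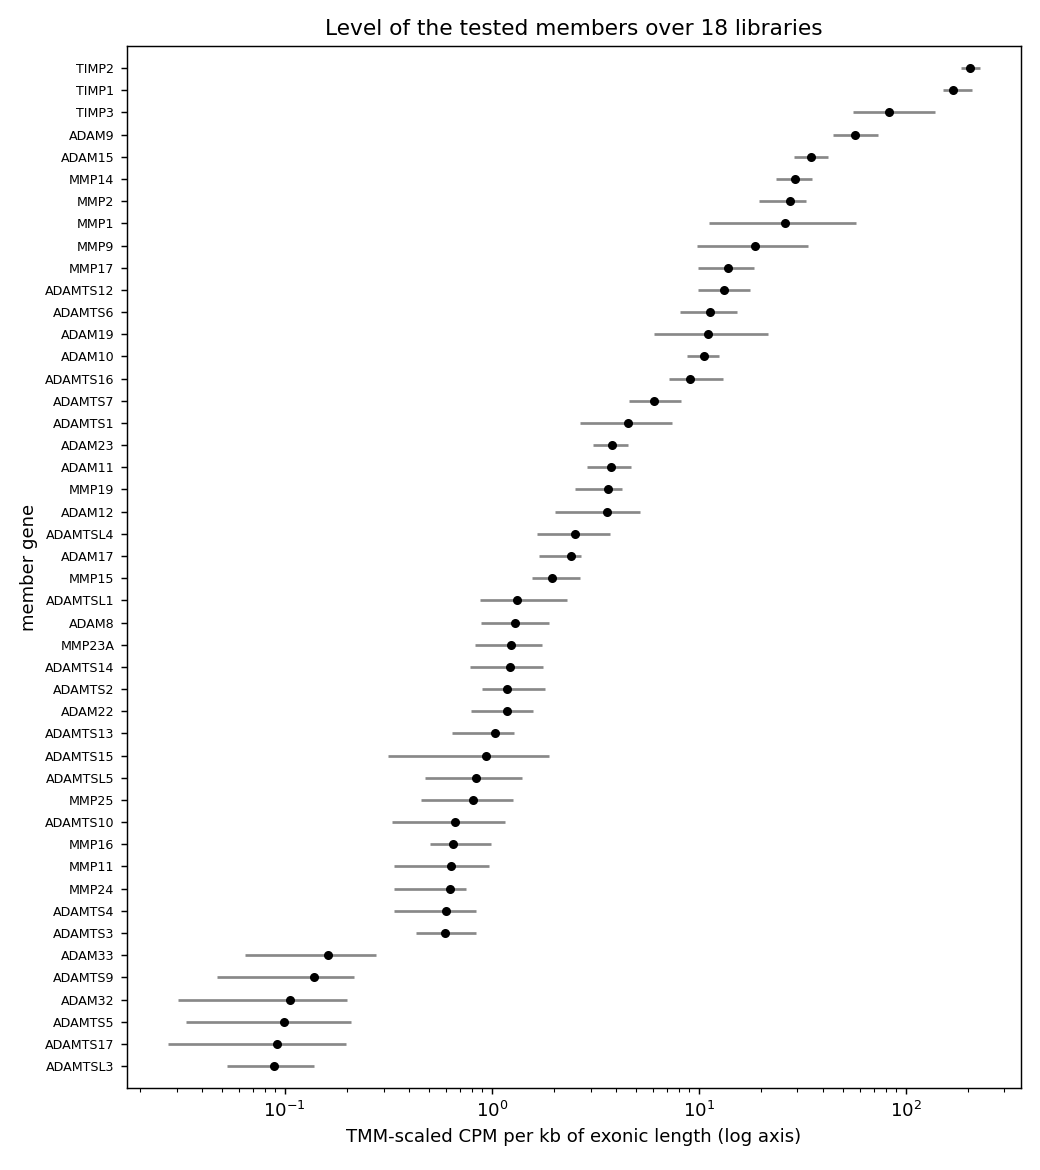
TMM-scaled CPM per kilobase of exonic length on a log axis for the 46 tested members; points are means over 18 libraries and lines run from the lowest to the highest library. TIMP2, TIMP1 and TIMP3 lead, and MMP1, ADAM19 and ADAMTS15 have wide ranges for their level.

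The filter removed whole subgroups unevenly. It kept 3 of 4 TIMPs, 7 of 8 membrane MMPs, 4 of 5 ADAMTSL genes and all 3 procollagen N-proteinases (ADAMTS2, ADAMTS3 and ADAMTS14), but only 5 of 16 secreted MMPs. The largest count of any removed member in any library was 20 (MMP23B), and 15 of the 28 had at most 3 counts in every library. MMP3, stromelysin 1, reached 11 counts and MMP28, epilysin, 16. ADAM6, MMP12 and MMP26 had no count in any library, which allows up to 3 counts, or 0.208 CPM in the shallowest and 0.129 CPM in the deepest library, for counting error only. MMP1 lies in a cluster of secreted MMP genes on chromosome 11 with MMP7, MMP20, MMP27, MMP8, MMP10, MMP3, MMP12 and MMP13, and was the only gene of that cluster to pass. MMP23A, the pseudogene copy of MMP23B, is counted among the 7 membrane MMPs that passed, and its level is uncertain because reads of the copies could be split.

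At 4 h the libraries labelled thrombin had lower levels of 11 tested members (5.52% of all genes tested were called lower) and a higher level of 1 (6.29% of all genes). The 11 were the inhibitor TIMP3, the meltrins ADAM12 and ADAM19, the ADAMTS genes 2, 6, 9, 15, 16 and 17, and ADAMTSL1 and ADAMTSL4, and the single gene called higher was MMP19. The median log2 fold change of the tested members was -0.19, against -0.00 over all genes, and 14 of the 46 were above 0. The count called lower rested on single libraries: it was 6 without control 13 or without control 14, and 5 without thrombin 13 or without thrombin 14. The count called higher was 0 without any 1 of these 4 libraries and 2 without control 12. TIMP3, ADAM19, ADAMTS6, ADAMTS15 and ADAMTSL4 were called under all 12 alternatives tried at 4 h.

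At 24 h the direction was the other way. Thrombin libraries had higher levels of 13 tested members, against 9.05% of all genes called higher, and a lower level of 1, ADAM22, against 8.54% of all genes called lower. The 13 were TIMP3, MMP9, the ADAMs 9, 12 and 19, the ADAMTS genes 1, 2, 6, 7, 12, 15 and 16, and ADAMTSL1. Their median over all 46 was 0.20, against 0.00 over all genes, and 29 of the 46 were above 0. Leaving out 1 library at a time gave 11 to 13 members called higher, and leaving out all 4 h libraries gave 14. ADAM12, ADAMTS1, ADAMTS7 and ADAM22 lost their call under at least 1 alternative, and the other 10 were called under all 13.

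At 48 h edgeR called 0 members and 0 genes (0% of all genes tested). Unadjusted p was under 0.05 for 8 of the 46 and for 1110 of the 15353 genes, and DESeq2 called 14 genes and 0 members. The median of the tested members was 0.01, equal to that of all genes to 2 decimals.

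**Figure D2:**
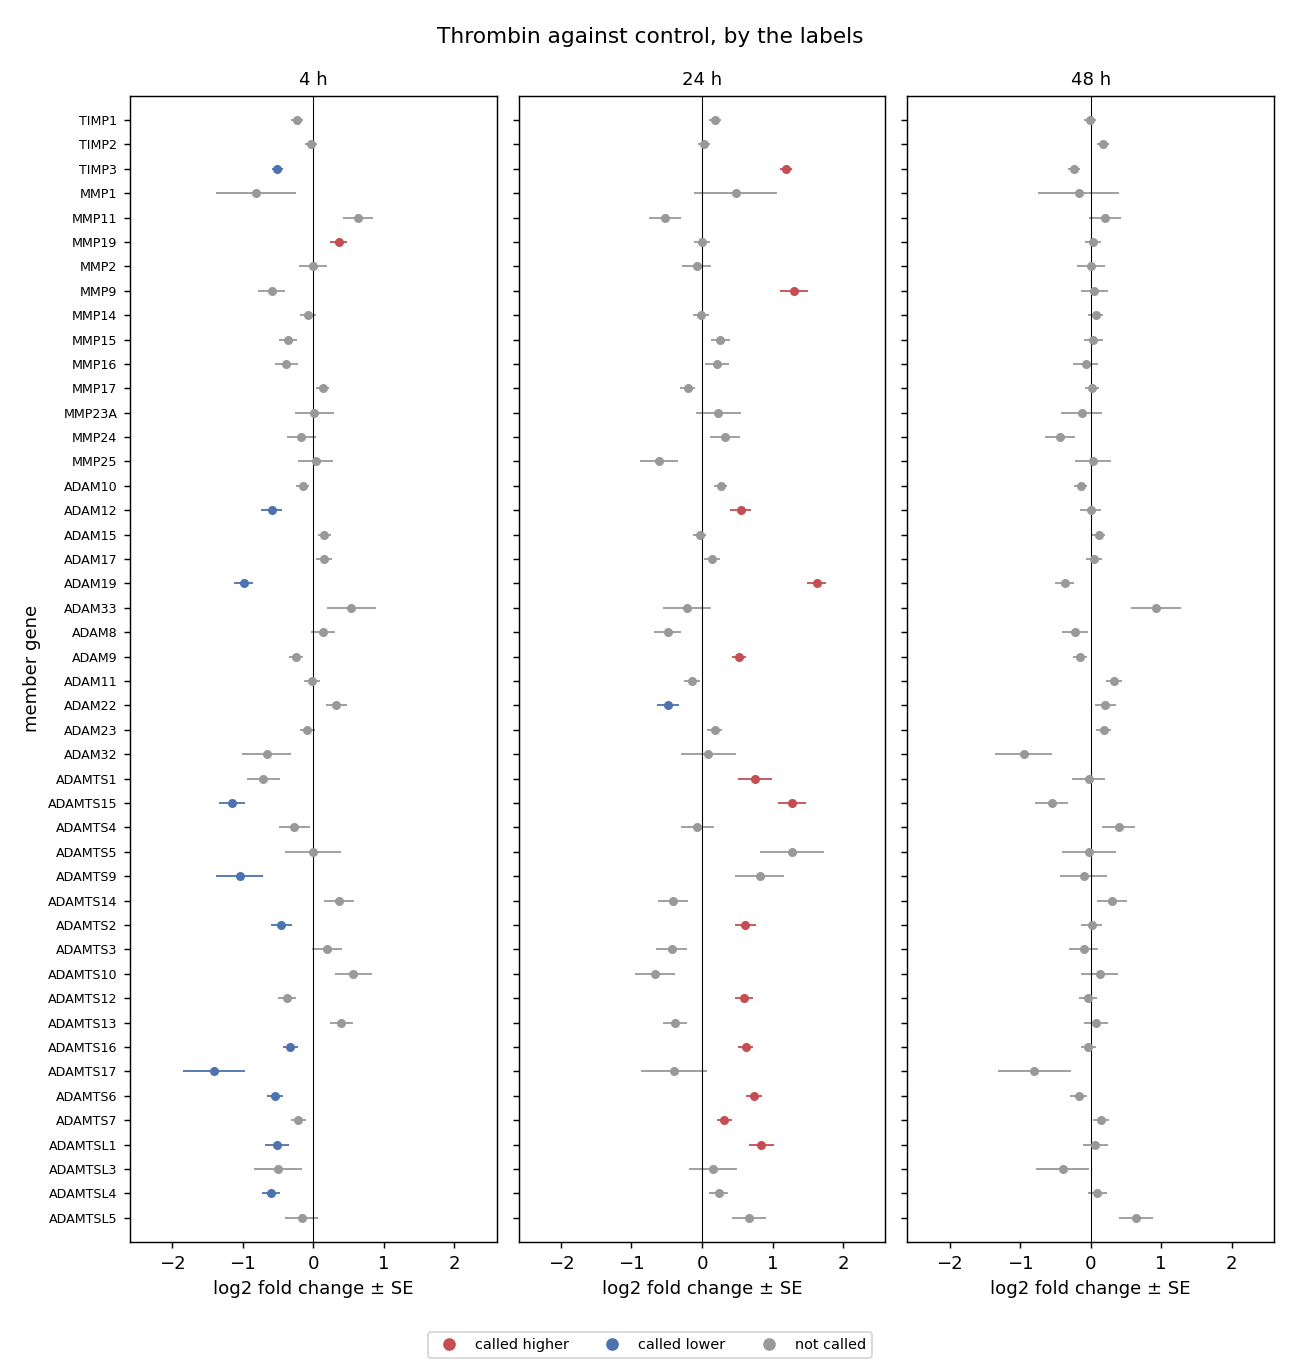
Log2 fold change of thrombin over control for the 46 tested members at 4, 24 and 48 h (edgeR, points with SE bars; groups as labelled). Colours mark called genes; 11 are lower and 1 higher at 4 h, 13 higher and 1 lower at 24 h, and 0 are called at 48 h.

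Separation of the libraries was also counted without a model. At 4 h the 3 thrombin libraries lay wholly below the 3 control libraries for 15 tested members (12.4% of all genes) and wholly above for 6 (13.4%). At 24 h they lay above for 17 (17.1%) and below for 5 (17.0%). At 48 h the figures were 4 above (7.28%) and 5 below (6.96%).

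**Figure D3:**
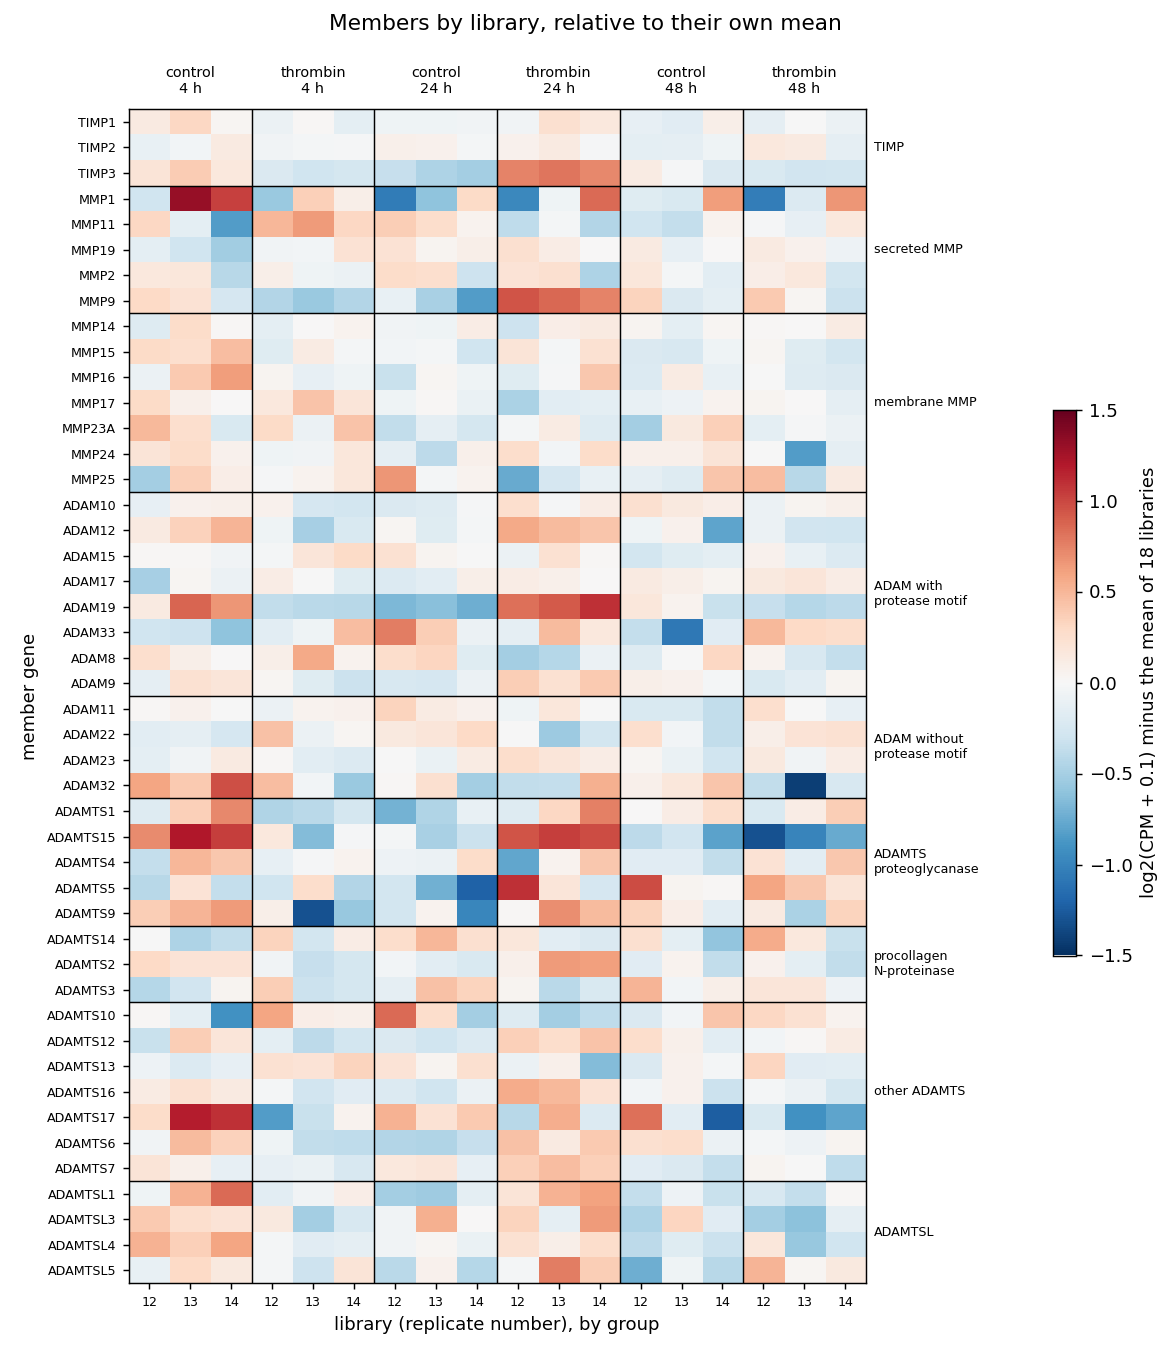
Each tested member's log2(CPM + 0.1) minus its own mean over the 18 libraries, in columns by group and replicate number and rows by class; the colour scale is capped at 1.5 on either side. TIMP3, ADAM19 and ADAMTS15 are red in control 4 h and thrombin 24 h, and MMP1 and ADAMTS1 vary with the replicate number inside groups.

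Of the 3 tested inhibitors, TIMP3 was called in thrombin against control, at 4 h and 24 h. TIMP3 is held in the matrix and inhibits MMPs, the TNF-alpha converting enzyme ADAM17 and aggrecanases; it lies on chromosome 22 (GRCh38, 32801701 to 32863043, plus strand). Its 250 bases before the RefSeq start site (GRCh38.p14, chr22:32801455-32801704, plus strand) are shown because it had the smallest adjusted p of the members at 24 h; no capitals appear since none of the motifs searched (described after the ADAMTS genes) was found.
TIMP3: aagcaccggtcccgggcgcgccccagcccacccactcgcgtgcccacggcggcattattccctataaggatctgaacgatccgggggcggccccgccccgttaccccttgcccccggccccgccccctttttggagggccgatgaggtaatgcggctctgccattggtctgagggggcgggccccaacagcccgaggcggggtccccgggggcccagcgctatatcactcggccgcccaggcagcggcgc
At 4 h, TIMP3 measured 416, 474 and 409 CPM in control libraries 12, 13 and 14, and 314, 296 and 303 CPM in those labelled thrombin; sets of 3 values keep this order of libraries throughout. The thrombin libraries were all lower, and the log2 fold change, given with its SE here and for each gene that follows, was -0.51 ± 0.08 (edgeR adjusted p = 0.000244). At 24 h it measured 288, 264 and 256 CPM in control and 613, 637 and 599.9 CPM in thrombin. All 3 thrombin libraries were above every other library of the series, and the change was 1.20 ± 0.08 (2.29-fold; edgeR adjusted p = 3.01e-10). At 48 h control gave 398, 359.8 and 315 CPM and thrombin 311, 299.5 and 302 CPM, close but not overlapping, with -0.23 ± 0.08 (edgeR adjusted p = 0.561), which did not pass.

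TIMP1, a secreted inhibitor of most MMPs, and TIMP2, which also takes part in the activation of MMP2 by MMP14, were not called in thrombin against control at any time. The thrombin effect on TIMP1 was called different between 4 h and 24 h, by 0.41 ± 0.12 (edgeR adjusted p = 0.015). TIMP1 measured 284, 322 and 265 CPM in control 4 h and 244, 263 and 235 CPM in thrombin 4 h, without overlap but with an edgeR adjusted p of 0.0897. Its 24 h values were 249, 249.7 and 250.3 CPM in control and 251, 307 and 291 CPM in thrombin, a change of 0.18 ± 0.09 (edgeR adjusted p = 0.167). The 3 control values at 24 h were nearly equal and the thrombin values lay just above them. At 48 h TIMP1 gave 239, 232 and 277 CPM in control and 238, 259 and 246 CPM in thrombin. TIMP2 stayed between 1045 and 1285 CPM in all 18 libraries: group means ± SD were 1155 ± 103 and 1131 ± 14.8 CPM at 4 h, 1184 ± 48.7 and 1205 ± 61.4 CPM at 24 h, and 1067 ± 34.5 and 1204 ± 129 CPM at 48 h, control first. TIMP4 was below the filter.

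Of the 5 secreted MMPs tested, MMP9 at 24 h and MMP19 at 4 h were called. MMP9, gelatinase B, cuts denatured collagen and basement membrane collagen (chromosome 20, 46008908 to 46016561, plus strand). Levels at 24 h were 38.0, 29.1 and 22.9 CPM in control and 78.8, 74.3 and 68.7 CPM in thrombin. The thrombin values were separate from and above the control values, with a log2 fold change of 1.30 ± 0.19 (2.47-fold; edgeR adjusted p = 0.000121). At 4 h control gave 50.2, 47.4 and 34.1 CPM and thrombin 30.0, 27.7 and 30.0 CPM. These did not overlap, and the change of -0.59 ± 0.19 had an edgeR adjusted p of 0.0548, which did not pass. MMP9 was called at 4 h under 5 of 12 alternatives. The edgeR adjusted p was 0.00263 with only the groups compared, 0.00291 with a replicate block and 1.56e-06 with no low-count filter. It was 0.0126 without all libraries numbered 12 and 0.0253 without control 14, and reached 0.164 in other alternatives. At 48 h control gave 51.7, 35.2 and 36.8 CPM and thrombin 53.6, 41.5 and 32.7 CPM, which overlapped (0.05 ± 0.19, edgeR adjusted p = 0.971). In all 6 groups the library numbered 12 had the highest MMP9 level, or shared it to 3 digits.

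MMP1, the interstitial collagenase that makes the first cut in fibrillar collagen, varied widely inside groups. At 4 h it measured 37.0, 113 and 92.6 CPM in control and 31.0, 58.5 and 48.5 CPM in thrombin. At 24 h it measured 22.0, 30.1 and 55.6 CPM in control and 23.2, 43.6 and 82.6 CPM in thrombin, and at 48 h 40.2, 38.8 and 70.7 CPM and 22.2, 39.5 and 71.95 CPM. The library numbered 12 was the lowest in 5 of the 6 groups, and the groups overlapped at each time. The changes were -0.82 ± 0.57, 0.48 ± 0.58 and -0.17 ± 0.58 at 4, 24 and 48 h, with edgeR adjusted p = 0.399, 0.63 and 0.966. With no low-count filter, edgeR called MMP1, with adjusted p = 3.42e-13 at 4 h and 0.000188 at 24 h for log2 fold changes of -0.82 and 0.47, although the libraries overlapped.

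MMP2, gelatinase A, measured 149, 150.3 and 100.2 CPM in control 4 h and 143, 128 and 126 CPM in thrombin 4 h, 162, 160 and 108 CPM in control 24 h and 154, 158 and 96.9 CPM in thrombin 24 h, and 151, 131 and 119.7 CPM in control 48 h and 143, 149 and 110.4 CPM in thrombin 48 h. Library 14 was the lowest in all 6 groups, and control and thrombin overlapped at each time, with log2 fold changes of -0.01 ± 0.20, -0.08 ± 0.20 and 0.01 ± 0.20 and edgeR adjusted p = 0.982, 0.834 and 0.998. MMP19 measured 15.3, 13.7 and 11.8 CPM in control 4 h and 16.4, 16.4 and 19.6 CPM in thrombin 4 h, a change of 0.36 ± 0.12 (edgeR adjusted p = 0.0448). The call was lost without control 13, control 14, thrombin 13 or thrombin 14, with an adjusted p of 0.0668 to 0.244. It was also lost with all libraries kept: the edgeR adjusted p was 0.115 with only the groups compared and 0.0702 with no low-count filter. MMP19 was called at 4 h under 6 of 12 alternatives. TMEM198B, a pseudogene that overlaps MMP19 on the opposite strand, changed by 0.47 ± 0.12 at 4 h (edgeR adjusted p = 0.013) and by -0.57 ± 0.13 at 24 h (edgeR adjusted p = 0.00245). The sources used here do not give the strand setting of the counting, so reads of these 2 genes cannot be told apart. MMP11, stromelysin 3, which furin activates inside the cell, measured 2.86 ± 1.11 CPM in control 4 h and 4.50 ± 0.505 CPM (SD, n = 3) in thrombin 4 h, without overlap (0.64 ± 0.21, edgeR adjusted p = 0.0507). CHCHD10 overlaps MMP11 on the opposite strand with a larger total (6223 and 1040 counts), so the level and change of MMP11 are uncertain.

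None of the 7 tested membrane MMPs, the pseudogene MMP23A among them, was called by edgeR in thrombin against control at any time. Of these only MMP15 and MMP16 at 4 h and MMP25 at 24 h had an unadjusted p under 0.05. MMP14, which cuts collagen at the cell surface and activates pro-MMP2, measured 114, 157 and 132 CPM in control 4 h and 118, 131 and 135 CPM in thrombin 4 h. Its 24 h values were 126, 125 and 141 CPM in control and 105, 139.5 and 143 CPM in thrombin, and at 48 h 134, 118 and 134 CPM and 132, 130.5 and 141 CPM. The groups overlapped at each time, with changes of -0.07 ± 0.11, -0.01 ± 0.11 and 0.07 ± 0.11 (edgeR adjusted p = 0.718, 0.956 and 0.913). MMP15, another transmembrane MMP, had a log2 fold change of -0.36 ± 0.13 at 4 h (edgeR adjusted p = 0.0728), and MMP25, anchored by a lipid, one of -0.62 ± 0.27 at 24 h (edgeR adjusted p = 0.12). Neither passed. MMP25-AS1 overlaps MMP25 on the opposite strand (1414 and 1050 counts), and MMP24OS overlaps MMP24 (38087 and 872 counts), so the values of MMP25 and MMP24 are uncertain. MMP15 was called in other comparisons: lower in control from 4 h to 24 h, by -0.45 ± 0.13 (edgeR adjusted p = 0.0223), and with a thrombin effect higher at 24 h than at 4 h, by 0.62 ± 0.19 (edgeR adjusted p = 0.0153).

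**Figure D4:**
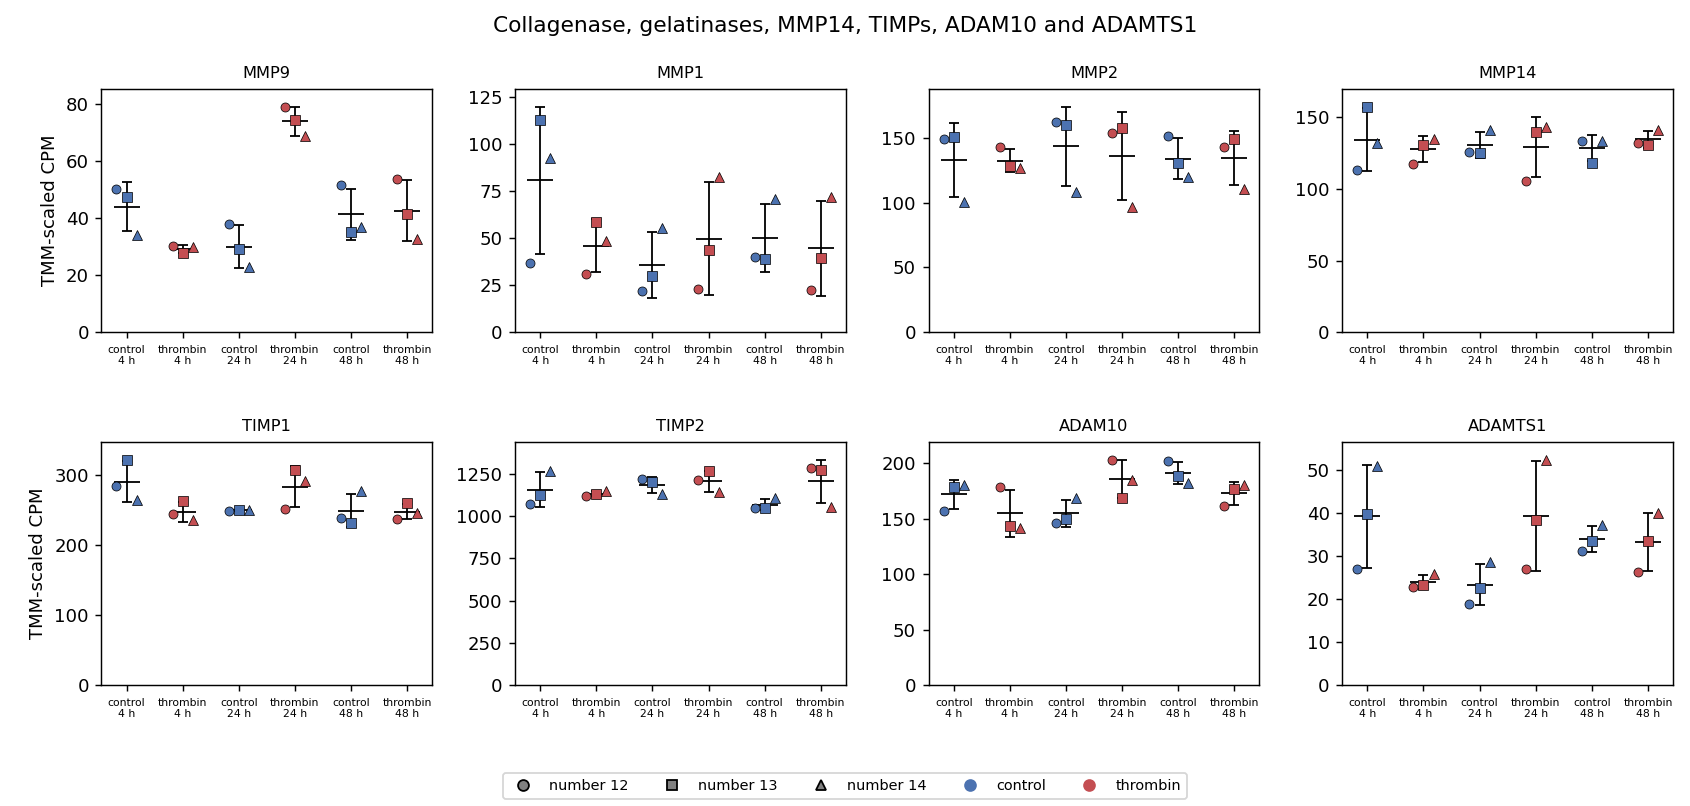
TMM-scaled CPM in each library (points, shaped by replicate number and coloured by labelled treatment) with the group mean and SD (bars, n = 3) for MMP9, MMP1, MMP2, MMP14, TIMP1, TIMP2, ADAM10 and ADAMTS1. MMP9 is separate and high in thrombin 24 h, whereas MMP1 and ADAMTS1 spread by replicate number inside most groups.

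Of the 8 tested ADAMs that carry the zinc-binding protease motif, ADAM12 and ADAM19 were called lower at 4 h, and ADAM9, ADAM12 and ADAM19 were called higher at 24 h. ADAM19, meltrin beta, can release the ectodomain of neuregulin 1, and lies on chromosome 5 (GRCh38, 157395534 to 157575775, minus strand). Its 250 bases before the RefSeq start (chr5:157575776-157576025, minus strand) are given because it had the largest called change of the members at 24 h.
ADAM19: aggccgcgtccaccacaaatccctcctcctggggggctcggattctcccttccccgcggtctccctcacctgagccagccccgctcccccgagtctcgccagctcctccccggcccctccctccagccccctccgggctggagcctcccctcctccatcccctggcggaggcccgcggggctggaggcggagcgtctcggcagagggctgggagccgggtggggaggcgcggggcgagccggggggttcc
At 4 h ADAM19 measured 85.8, 143 and 124 CPM in control and 60.4, 59.0 and 58.4 CPM in the libraries labelled thrombin. The thrombin libraries were within 3 CPM of each other and all below control, of which library 12 was the lowest, and the change was -0.99 ± 0.13 (edgeR adjusted p = 3.7e-05). Levels at 24 h were 49.1, 50.7 and 47.0 CPM in control and 139, 148 and 167 CPM in thrombin. This was a separation of 3.09-fold, or 1.63 ± 0.14 on the log2 scale (edgeR adjusted p = 7.93e-09). At 48 h control gave 87.8, 81.0 and 62.2 CPM and thrombin 61.3, 58.2 and 59.3 CPM, all lower but not called (-0.37 ± 0.13, edgeR adjusted p = 0.561). CYFIP2, which encodes a regulator of actin assembly, overlaps ADAM19 exons on the opposite strand and was not called at these times: its changes were 0.21 ± 0.09, -0.15 ± 0.09 and 0.14 ± 0.09.

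ADAM12, meltrin alpha, which releases heparin-binding EGF-like growth factor, measured 37.7, 43.7 and 49.0 CPM in control 4 h and 32.8, 24.3 and 29.4 CPM in thrombin 4 h. The groups did not overlap, and the change was -0.59 ± 0.15 (edgeR adjusted p = 0.0137); without control 14, thrombin 13 or thrombin 14 the adjusted p was 0.0503 to 0.0777. At 24 h it measured 35.0, 30.4 and 33.6 CPM in control and 51.0, 47.7 and 46.1 CPM in thrombin, a change of 0.55 ± 0.15 (edgeR adjusted p = 0.0142; 0.0699 without control 13 and 0.0957 without all libraries numbered 12). At 48 h it measured 32.9, 35.9 and 19.8 CPM in control and 32.5, 28.3 and 27.9 CPM in thrombin, and the groups overlapped. ADAM9, meltrin gamma, measured 327, 326 and 364 CPM in control 24 h and 502, 453 and 509.8 CPM in thrombin 24 h. All 3 thrombin libraries were higher, by 0.53 ± 0.10 (1.44-fold; edgeR adjusted p = 0.000431). At 4 h ADAM9 gave 353, 455 and 438 CPM in control and 396, 342 and 309 CPM in thrombin, and at 48 h 410.4, 405 and 380.4 CPM and 332, 348 and 397 CPM. These overlapped, with -0.25 ± 0.10 and -0.15 ± 0.10 (edgeR adjusted p = 0.0975 and 0.763). ADAM9 was called at 4 h under 4 of 12 alternatives. Without control 12 or without thrombin 12 the change was -0.36 or -0.35 (edgeR adjusted p = 0.0162 or 0.0186). The edgeR adjusted p was 0.000583 without all libraries numbered 12 and 0.0389 with no low-count filter.

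The principal sheddases ADAM10, which cuts Notch receptors and the amyloid precursor, and ADAM17, which releases TNF-alpha and EGF receptor ligands, were not called in thrombin against control at any time. The thrombin effect on ADAM10 was called different from 4 h to 24 h, by 0.42 ± 0.13 (edgeR adjusted p = 0.0216), and from 24 h to 48 h, by -0.41 ± 0.13 (edgeR adjusted p = 0.0426). ADAM10 measured 147, 149.7 and 168 CPM in control 24 h and 203, 169 and 185 CPM in thrombin 24 h, just separate, with 0.26 ± 0.09 (edgeR adjusted p = 0.0554). It was called at 24 h under 6 of 13 alternatives. The adjusted p was 0.0421 with DESeq2, and with edgeR 0.0387 with only the groups compared, 0.0345 without control 14 and 0.0296 without thrombin 13. At 4 h it gave 157, 179 and 181 CPM in control and 179, 144 and 142 CPM in thrombin (-0.15 ± 0.09, edgeR adjusted p = 0.32). The edgeR adjusted p was 0.049 without thrombin 12 and 0.00444 without all libraries numbered 12. At 48 h control gave 202, 188 and 182 CPM and thrombin 161, 176 and 181 CPM, narrowly separate and not called. ADAM17 measured 18.2, 26.2 and 24.3 CPM in control 4 h and 27.9, 25.6 and 22.8 CPM in thrombin 4 h, 22.3, 23.2 and 27.4 CPM in control 24 h and 27.9, 27.1 and 25.8 CPM in thrombin 24 h, and 28.4, 27.5 and 26.6 CPM and 28.5, 29.2 and 27.9 CPM at 48 h. Its groups overlapped at each time, and the changes were 0.15 ± 0.11, 0.15 ± 0.12 and 0.05 ± 0.11 (edgeR adjusted p = 0.438, 0.419 and 0.938). IAH1 overlaps ADAM17 on the opposite strand with a similar total (8174 and 8169 counts), so the level of ADAM17 is uncertain.

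Among the 4 tested ADAMs that lack the protease motif, ADAM22, a receptor for the secreted neuronal protein LGI1, was called lower at 24 h. It measured 15.8, 16.2 and 17.6 CPM in control and 14.1, 9.72 and 11.7 CPM in thrombin, -0.48 ± 0.15 (edgeR adjusted p = 0.0305). The call was lost without any 1 of control 12, 13 or 14 or thrombin 13 or 14, with an adjusted p of 0.0567 to 0.143. Without control 14, ADAM8 and ADAMTS10 were called lower in its place. The related receptor ADAM23 had a log2 fold change of 0.18 ± 0.11 at 24 h (edgeR adjusted p = 0.274).

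Of the 5 tested proteoglycan-cutting ADAMTS genes, ADAMTS9 and ADAMTS15 were called lower at 4 h, and ADAMTS1 and ADAMTS15 were called higher at 24 h. ADAMTS15, which cuts versican, measured 7.58, 10.7 and 9.53 CPM in control 4 h and 5.13, 2.88 and 4.52 CPM in the libraries labelled thrombin 4 h. The control values were all higher and the change was -1.15 ± 0.19 (0.450-fold; edgeR adjusted p = 0.000229). Its 24 h values were 4.48, 3.23 and 3.66 CPM in control and 8.95, 9.51 and 9.14 CPM in thrombin. The thrombin libraries lay within 1 CPM of each other and above every control library of 24 h, a change of 1.28 ± 0.20 (edgeR adjusted p = 4.05e-05). At 48 h both groups were low, 3.47, 3.74 and 2.58 CPM in control and 1.79, 2.25 and 2.67 CPM in thrombin, with -0.55 ± 0.23 (edgeR adjusted p = 0.64).

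ADAMTS1, a versican- and aggrecan-cutting protease, measured 26.9, 39.7 and 50.8 CPM in control 4 h and 22.6, 23.3 and 25.8 CPM in thrombin 4 h, 18.9, 22.6 and 28.5 CPM in control 24 h and 26.9, 38.4 and 52.3 CPM in thrombin 24 h, and 31.1, 33.3 and 37.0 CPM and 26.3, 33.4 and 39.9 CPM at 48 h. In each of the 6 groups library 12 was the lowest and library 14 the highest. Control and thrombin overlapped at 24 h, where the change was 0.75 ± 0.24 (edgeR adjusted p = 0.0425), and the call was lost without control 12 or 13 or thrombin 13 or 14 (adjusted p 0.0841 to 0.202). It was also lost with only the groups compared (edgeR adjusted p = 0.0752). At 4 h the groups were separate, with -0.71 ± 0.24 and an edgeR adjusted p of 0.0661, which did not pass. ADAMTS1 was called at 4 h under 6 of 12 alternatives. The adjusted p was 0.0442 with DESeq2, and with edgeR 0.000603 with a replicate block and 0.0115 with only the groups compared. Without control 12 the change was -0.92 (edgeR adjusted p = 0.0107), and the adjusted p reached 0.244 in other alternatives. ADAMTS9, another versican-cutting member, was near 1 CPM: 1.84, 2.03 and 2.23 CPM in control 4 h and 1.49, 0.505 and 0.904 CPM in thrombin 4 h, -1.05 ± 0.33 (edgeR adjusted p = 0.0383). Leaving out control 13, control 14, thrombin 13 or thrombin 14 ended that call (adjusted p 0.103 to 0.201). At 24 h ADAMTS9 gave 1.14, 1.45 and 0.661 CPM and 1.41, 2.31 and 1.98 CPM, and at 48 h 1.79, 1.496 and 1.23 CPM and 1.54, 0.972 and 1.78 CPM, control first, with overlap. The aggrecanases ADAMTS4 and ADAMTS5 were not called; ADAMTS5 gave 0.477 ± 0.184 CPM in control 24 h and 1.17 ± 0.632 CPM in thrombin 24 h (1.28 ± 0.46, edgeR adjusted p = 0.0538).

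The procollagen N-proteinases remove the amino-terminal propeptides of fibrillar procollagens. ADAMTS2 measured 11.9 ± 0.421 CPM in control 4 h and 8.72 ± 0.915 CPM (SD, n = 3) in thrombin 4 h, a change of -0.45 ± 0.15 (edgeR adjusted p = 0.0448) that was not called without control 12, 13 or 14 or thrombin 13 or 14 (adjusted p 0.0886 to 0.17). A replicate block also ended that 4 h call. The means at 24 h were 9.17 ± 0.598 CPM for control and 14.0 ± 2.86 CPM for thrombin, a rise of 0.61 ± 0.15 (edgeR adjusted p = 0.00489). ADAMTS3 and ADAMTS14 were not called at either time, and their values at 24 h were on the other side of 0: -0.43 ± 0.22 and -0.41 ± 0.22 (edgeR adjusted p = 0.185 and 0.205).

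Of the 7 other ADAMTS genes tested, ADAMTS6, ADAMTS16 and ADAMTS17 were called lower at 4 h, and ADAMTS6, ADAMTS7, ADAMTS12 and ADAMTS16 higher at 24 h. ADAMTS6, the paralog of the fibrillin-binding ADAMTS10, and ADAMTS12, which cuts cartilage oligomeric matrix protein, lie on chromosome 5, as do ADAM19 and ADAMTS16. The 250 bases before their RefSeq starts (ADAMTS6 chr5:65481921-65482170, minus strand; ADAMTS12 chr5:33891991-33892240, minus strand) are shown because they are the members called at 4 h or 24 h whose windows held a searched motif. Capitals in ADAMTS6 mark a TEAD motif, and in ADAMTS12 first a TEAD motif on the opposite strand and then an AP-1 motif.
ADAMTS6: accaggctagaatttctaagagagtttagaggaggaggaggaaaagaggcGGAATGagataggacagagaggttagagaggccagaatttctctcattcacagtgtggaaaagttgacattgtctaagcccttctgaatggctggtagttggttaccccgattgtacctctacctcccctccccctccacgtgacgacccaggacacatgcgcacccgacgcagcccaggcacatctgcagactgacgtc
ADAMTS12: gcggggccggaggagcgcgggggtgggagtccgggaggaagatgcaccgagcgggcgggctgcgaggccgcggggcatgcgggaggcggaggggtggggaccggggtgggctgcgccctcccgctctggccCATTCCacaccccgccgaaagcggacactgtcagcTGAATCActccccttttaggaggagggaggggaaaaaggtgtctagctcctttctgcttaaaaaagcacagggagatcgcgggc
ADAMTS6 measured 91.4, 132 and 120.5 CPM in control 4 h and 90.5, 73.1 and 72.5 CPM in thrombin 4 h. Control 12 lay barely above thrombin 12, and the change was -0.54 ± 0.12 (edgeR adjusted p = 0.00359). Levels at 24 h were 70.0, 69.2 and 74.6 CPM in control and 128, 104 and 124 CPM in thrombin, all higher, by 0.74 ± 0.12 (1.67-fold; edgeR adjusted p = 7.81e-05). At 48 h control gave 112, 113 and 89.1 CPM and thrombin 92.8, 89.8 and 97.4 CPM, which overlapped. ADAMTS12 measured 108 ± 4.03 CPM in control 24 h and 163 ± 9.76 CPM in thrombin 24 h (SD, n = 3), without overlap, 0.59 ± 0.13 (edgeR adjusted p = 0.00158). At 4 h its libraries overlapped, with -0.37 ± 0.12 (edgeR adjusted p = 0.0552).

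ADAMTS16 measured 56.8, 61.4 and 57.5 CPM in control 4 h and 51.0, 42.8 and 46.5 CPM in thrombin 4 h, -0.33 ± 0.10 (edgeR adjusted p = 0.0414). That call ended without control 13 or 14 or thrombin 13 or 14 (adjusted p 0.085 to 0.192). At 24 h it measured 45.2, 42.6 and 49.0 CPM in control and 76.6, 73.5 and 60.6 CPM in thrombin, 0.62 ± 0.11 (edgeR adjusted p = 0.000137), and all 3 thrombin libraries were higher. At 48 h it measured 50.9, 54.7 and 41.9 CPM in control and 51.3, 49.3 and 43.6 CPM in thrombin. ADAMTS7, like ADAMTS12 a protease of cartilage oligomeric matrix protein, rose by 0.31 ± 0.11 at 24 h (edgeR adjusted p = 0.0436), a call lost without control 12 or 14 or any thrombin library (adjusted p 0.0597 to 0.199). ADAMTS17 was near the detection floor at 4 h, with 0.829, 1.63 and 1.53 CPM in control and 0.326, 0.505 and 0.691 CPM in thrombin, and its call (-1.41 ± 0.44, edgeR adjusted p = 0.036) was lost without control 13 or 14 or any thrombin library (adjusted p 0.0574 to 0.17). ADAMTS17 gave 1.00, 0.792 and 0.901 and 0.471, 1.02 and 0.564 CPM at 24 h and 1.26, 0.588 and 0.224 and 0.555, 0.307 and 0.342 CPM at 48 h, control first, with overlap. ADAMTS13, which cuts von Willebrand factor, and ADAMTS10 were not called at 4 h (0.40 ± 0.17 and 0.57 ± 0.26) or 24 h (-0.38 ± 0.17 and -0.67 ± 0.28).

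ADAMTS-like proteins share the accessory domains of ADAMTS proteases without the protease, and several bind fibrillin. ADAMTSL1 measured 12.2, 11.9 and 15.7 CPM in control 24 h and 19.9, 25.1 and 26.6 CPM in thrombin 24 h, all higher, by 0.84 ± 0.17 (1.79-fold; edgeR adjusted p = 0.00145). At 4 h it gave 16.6, 25.1 and 31.4 CPM in control and 15.6, 16.8 and 18.7 CPM in thrombin, which overlapped, and its call (-0.51 ± 0.17, edgeR adjusted p = 0.0469) ended without control 13 or 14 or any thrombin library (adjusted p 0.0769 to 0.289). With only the groups compared the 4 h call also ended (edgeR adjusted p = 0.0556). At 48 h ADAMTSL1 gave 13.5, 16.5 and 13.7 CPM and 14.7, 13.6 and 17.66 CPM. ADAMTSL4, which promotes fibrillin fibre formation, measured 22.8, 20.3 and 24.0 CPM in control 4 h and 15.5, 14.1 and 14.5 CPM in thrombin 4 h. Those groups were well apart (-0.60 ± 0.13, edgeR adjusted p = 0.00332). Its 24 h values were 15.3, 16.2 and 14.8 CPM and 18.6, 16.8 and 19.1 CPM, also separate but with 0.23 ± 0.13 and an edgeR adjusted p of 0.249, and at 48 h 12.0, 13.9 and 12.6 CPM and 17.8, 10.6 and 12.9 CPM.

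**Figure D5:**
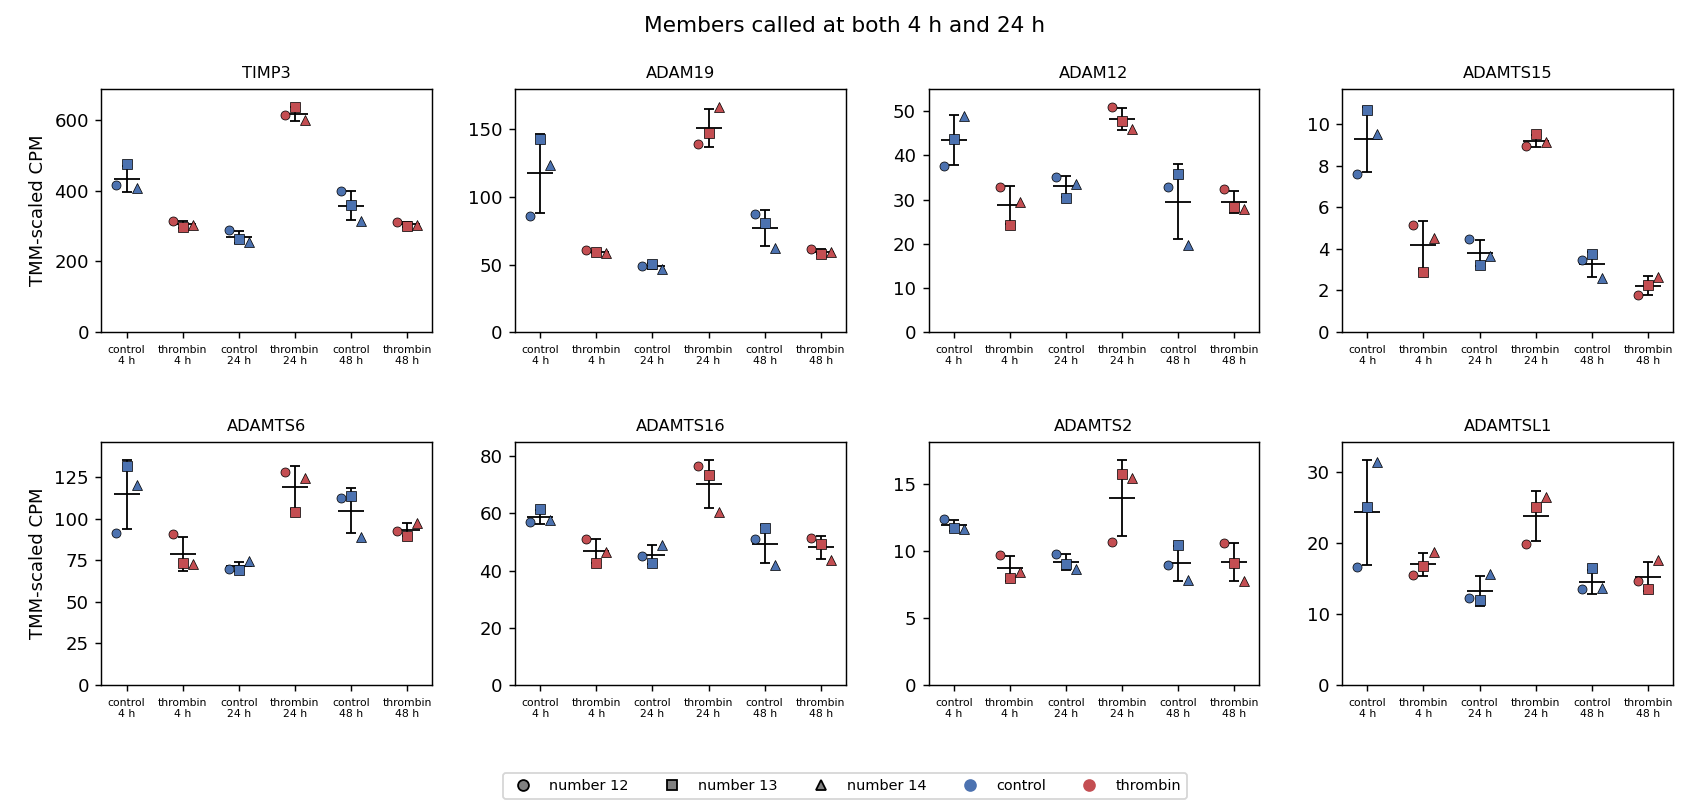
TMM-scaled CPM in each library (points, shaped by replicate number and coloured by labelled treatment) with the group mean and SD (bars, n = 3) for the 8 members called at both 4 h and 24 h. In each panel control 4 h and thrombin 24 h have the higher group means, and thrombin 4 h and control 24 h the lower ones, at their own time.

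All 8 members called at both times (ADAM12, ADAM19, ADAMTS2, ADAMTS6, ADAMTS15, ADAMTS16, ADAMTSL1 and TIMP3) were lower in thrombin at 4 h and higher at 24 h, as labelled, and 948 of the 961 genes called at both times likewise had opposite signs. The change of the thrombin effect from 4 h to 24 h was tested directly, as a contrast of contrasts: 18 members were called higher (13.6% of all genes) and 4 lower (14.3%: ADAM22, ADAMTS10, ADAMTS13 and MMP11). The 3 called differences with the smallest adjusted p were 2.62 ± 0.19 in ADAM19 (edgeR adjusted p = 5.25e-10), 2.43 ± 0.27 in ADAMTS15 (edgeR adjusted p = 2.31e-07) and 1.70 ± 0.12 in TIMP3 (edgeR adjusted p = 8.34e-11). From 24 h to 48 h, 10 members were called lower (6.68% of all genes) and 2 higher (7.16%: ADAM11 and ADAM22). ADAM19 differed by -2.00 ± 0.19 (edgeR adjusted p = 1.94e-07) and TIMP3 by -1.43 ± 0.12 (edgeR adjusted p = 1.05e-08). Both differences use the same 24 h libraries. Without control 12 at 4 h the number called lower from 4 h to 24 h was 7. The 2 called higher from 24 h to 48 h became 0 or 1 without any 1 of control 24 h 12 or 13, thrombin 24 h 12, 13 or 14, control 48 h 12, 13 or 14, or thrombin 48 h 12 or 13.

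Between 4 h and 48 h, edgeR called the effect different for 0 members (0.475% of all genes higher and 0.156% lower). Unadjusted p was under 0.05 for 13 members and for 1783 of the 15353 genes, and DESeq2 called 1, ADAMTSL4. That count also moved with single libraries: it was 2 without control 12 at 4 h (ADAM19 and ADAMTSL1) and 1 without thrombin 13 at 48 h (ADAMTSL4).

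As labelled, the control groups themselves differed over time. The change from 4 h to 24 h in control rests on the labels of the 4 h libraries, which were not tested. Between thrombin 4 h and control 24 h, edgeR called 11 of 15353 genes and 0 members. From 4 h to 24 h in control, 10 members were called lower (7.15% of all genes) and 1, MMP19, higher (8.10%). ADAM19 changed by -1.27 ± 0.13 (edgeR adjusted p = 1.03e-06), ADAMTS15 by -1.29 ± 0.20 (edgeR adjusted p = 5.75e-05) and TIMP3 by -0.68 ± 0.08 (edgeR adjusted p = 3.69e-06). MMP19 changed by 0.43 ± 0.12, and its call was lost without control 14 at 4 h or control 12 at 24 h. The count called higher was 2 without control 12 at 4 h (ADAMTS14 added) or control 14 at 24 h (ADAMTS10 added). From 24 h to 48 h in control, ADAM19, ADAMTS6 and TIMP3 were called higher (2.69% of all genes), by 0.66 ± 0.13, 0.56 ± 0.12 and 0.41 ± 0.08, and ADAM11 lower (3.43%), by -0.46 ± 0.11, which makes 4 members in all against 6.12% of genes called in either direction. The ADAM11 call was lost without control 12 or 13 at 24 h or any control library at 48 h (edgeR adjusted p 0.0512 to 0.15), and 2 members were called lower without control 14 at 24 h. These comparisons share their control libraries with the thrombin comparisons.

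Over the 6 groups, 17 of the 46 tested members had their highest mean in thrombin 24 h and 12 in control 4 h, against 8 in control 24 h, 6 in thrombin 4 h, 2 in thrombin 48 h and 1 in control 48 h. The same count was not made over all genes, so these numbers cannot be read as a trait of the members. Control 24 h and thrombin 48 h differed in 55 genes (0.358%) and 0 members by edgeR, with 8 members at an unadjusted p under 0.05 and 126 genes and 0 members called by DESeq2.

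RefSeq promoter windows (GRCh38.p14, 250 bases before to 50 after a start site) were found for 44 of the 74 symbols, as 45 windows. Both strands were searched for the AP-1 motif TGANTCA, the TEAD motif GGAATG and the CArG box bound by serum response factor. AP-1 letters were in 4 of 45 member windows (8.89%) and 7.71% of all 35116 windows, TEAD letters in 5 (11.1%) and 14% of all, and the CArG box in 0 and 1.29% of all. Of the members called at 4 h or 24 h, ADAMTS12 held AP-1 letters beginning at -84 and TEAD letters at -119 from the start, and ADAMTS6 held TEAD letters at -200. The windows of TIMP3 and ADAM19 held none, which says only that these letters are not in these windows. The other AP-1 matches were in MMP7, MMP10 and MMP20, secreted MMPs of the chromosome 11 cluster that did not pass the filter. MMP7 and MMP10 hold it at the same distance, -67; the 47 bases around it (MMP7 chr11:102530788-102530834, minus strand; MMP10 chr11:102780669-102780715, minus strand) are shown with the 7 letters in capitals.
MMP7: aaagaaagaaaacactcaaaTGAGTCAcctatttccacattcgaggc
MMP10: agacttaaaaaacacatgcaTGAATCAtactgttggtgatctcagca
No entry was found for MMP1, MMP2, MMP9, TIMP2, ADAM9, ADAMTS1, ADAMTS15 and ADAMTS16.

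Genes outside the families that activate, escort or inhibit the proteases, or that they cut, were taken from fixed lists. Beside the list counts that follow, 6.29% of all genes tested were called higher and 5.52% lower at 4 h. At 24 h these shares were 9.05% and 8.54%. PLAT, tissue plasminogen activator, changed by -1.36 ± 0.14 at 4 h (edgeR adjusted p = 2.68e-06) and by 1.55 ± 0.14 at 24 h (edgeR adjusted p = 7.43e-08). FURIN, the convertase that removes propeptides of ADAMs and membrane MMPs, changed by 0.31 ± 0.10 at 4 h (edgeR adjusted p = 0.0434) and had a value of 0.03 ± 0.10 at 24 h (edgeR adjusted p = 0.871). Of 9 partners that escort ADAM10 or ADAM17, 2 were called higher at 4 h and 1 lower at 24 h: the tetraspanin TSPAN15 changed by 0.60 ± 0.14 and -0.68 ± 0.15 (edgeR adjusted p = 0.00799 and 0.00212), and the iRhom RHBDF2 by 0.32 ± 0.09 at 4 h.

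Of 7 tested inhibitors and clearance partners other than TIMPs, 3 were called lower at 4 h and 5 higher at 24 h. THBS1, which encodes thrombospondin 1, changed by 1.40 ± 0.12 at 24 h and TFPI2, a Kunitz-type inhibitor, by 0.42 ± 0.12 (edgeR adjusted p = 5.37e-09 and 0.0221). Of 10 tested matrix proteases of other families, 1 was called higher and 2 lower at 4 h, and 5 higher and 2 lower at 24 h, among them the cathepsin genes CTSL (0.61 ± 0.13) and CTSS (-1.37 ± 0.21) and BMP1, the procollagen C-proteinase (0.44 ± 0.10; edgeR adjusted p = 0.00254, 3.19e-05 and 0.00316). Of 13 tested membrane proteins that ADAM10 or ADAM17 shed, 4 were called lower at 4 h and 5 higher at 24 h, including the growth factor genes HBEGF (0.95 ± 0.13) and NRG1 (1.20 ± 0.11; edgeR adjusted p = 6.71e-06 and 2.16e-08). Of 11 tested matrix substrates, 1 was called lower at 4 h and 5 higher at 24 h, the fibronectin gene FN1 by 1.07 ± 0.17 and the fibrillin gene FBN1 by 0.81 ± 0.16 (edgeR adjusted p = 0.000219 and 0.00134). The median of these 11 genes at 24 h was -0.05, below 0 although the 5 called genes were higher. At 48 h edgeR called 0 genes of these lists, as it called 0 of all genes.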

How the data were processed

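Raw counts per gene symbol were deposited by the authors as 1 table of 18 libraries. The tools named per the submitters' processing notes are Bowtie2 2.5.4, SAMtools 1.21, cutadapt 4.9 and DESeq2, on the human build GRCh38 (hg38), with no roles stated; the counting program, annotation and strand setting are not given in the sources used here. Libraries were grouped by their titles, 3 in each of 6 groups. The members and gene lists were chosen with earlier results of these data known.

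From the counts, edgeR 4.0.16 (R 4.3.3, limma 3.58.1) fitted a mean per group over all 18 libraries, after filterByExpr (minimum count 10, minimum total 15), which kept 15353 of 28278 symbols and at least 99.92% of the counts of each library, and TMM scaling (factors 0.945 to 1.03). The common biological coefficient of variation was 9.07%. Tests were two-sided and quasi-likelihood, with 12 residual degrees of freedom before moderation and p-values adjusted by Benjamini-Hochberg over all 15353 genes in each of 8 comparisons. The procedure was also run on simulated counts. The settings and outcome of that run are not given here, so no error rate is drawn from it. Gene positions come from a GRCh38 annotation, and promoter sequences from RefSeq (GRCh38.p14). No pair of libraries within a group agreed within sampling noise (lowest chi-square per gene 2.85).

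Values in every library are given for up to 8 called members with the smallest adjusted p per thrombin comparison and for 12 anchor genes fixed by name (MMP3 among them was not tested); other tested members may be named with their fold change, and each pathway list with up to 4 called genes per comparison. Alternatives were RLE size factors, no low-count filter (23839 genes), DESeq2 1.42.0, only the groups compared, a replicate block, each library left out in turn, all libraries numbered 12 left out and, added after the data were seen, all 4 h libraries left out. The floor given for a count of 0 (3 counts) covers counting error only. Counts for the list of protease-activating genes are not reported here.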

Additional observations from a re-analysis of the deposited data

Results flagged for a closer look

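In 6 members, the 5 with the smallest adjusted p for each pair of times, the effect of thrombin differed between times when the difference itself was tested (edgeR, contrast of contrasts, log2 scale, 3 libraries a group, groups as labelled). From 4 h to 24 h it rose by 1.70 in TIMP3 (edgeR adjusted p = 8.34e-11), 2.62 in ADAM19 (adjusted p = 5.25e-10), 2.43 in ADAMTS15 (adjusted p = 2.31e-07), 1.28 in ADAMTS6 (adjusted p = 2.93e-06) and 0.948 in ADAMTS16 (adjusted p = 3.1e-05). From 24 h to 48 h it changed by -1.43 in TIMP3 (edgeR adjusted p = 1.05e-08), -2.00 in ADAM19 (adjusted p = 1.94e-07), -1.83 in ADAMTS15 (adjusted p = 0.000176), -0.906 in ADAMTS6 (adjusted p = 0.000602) and -0.678 in ADAM9 (adjusted p = 0.00168). The first 5 values rest on the labels of the 4 h libraries.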

How the results depend on the processing

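With 3 libraries a group, single libraries decided many calls near the threshold. No called value of a named gene changed sign under the alternatives run, whereas some values that were not called did, such as MMP1 at 24 h (-0.115 to 0.946), MMP2 at 4 h (-0.177 to 0.0881) and ADAMTSL4 at 48 h (-0.185 to 0.251). Leaving out 1 library at a time gave, for members called higher and lower, 0 to 2 and 5 to 14 at 4 h, 11 to 13 and 0 to 2 at 24 h, 0 to 0 and 0 to 0 at 48 h, 16 to 20 and 3 to 7 for the difference from 4 h to 24 h, 0 to 2 and 8 to 12 from 24 h to 48 h, 0 to 2 and 0 to 0 from 4 h to 48 h, 0 to 2 and 7 to 13 in control from 4 h to 24 h, and 3 to 4 and 0 to 2 in control from 24 h to 48 h.

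Other alternatives moved these counts of members, which are given without the share over all genes under each setting. RLE size factors gave 2 higher at 4 h, 1 higher for the difference from 24 h to 48 h and 2 higher in control from 4 h to 24 h. DESeq2 gave 2 higher at 4 h, 1 higher for the difference from 4 h to 48 h, 2 higher in control from 4 h to 24 h and 2 lower in control from 24 h to 48 h. With only the groups compared, 0 were higher at 4 h, 1 higher from 24 h to 48 h, 3 higher in control from 4 h to 24 h, and 7 higher and 3 lower in control from 24 h to 48 h. Without all libraries numbered 12, 4 were higher and 17 lower at 4 h, 2 lower at 24 h, 1 higher from 24 h to 48 h, 7 higher from 4 h to 48 h, 3 higher in control from 4 h to 24 h and 0 lower in control from 24 h to 48 h. With no low-count filter, 3 were lower at 24 h, 1 lower at 48 h (ADAM19), 6 higher from 4 h to 48 h, 3 higher and 16 lower in control from 4 h to 24 h, and 9 higher and 2 lower in control from 24 h to 48 h. Without the 4 h libraries, 1 was higher from 24 h to 48 h, and 5 higher and 2 lower in control from 24 h to 48 h. The cause of these moves was not tested.

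Over all tested genes the replicate numbers showed no general pairing of the samples. Of 45 same-numbered pairs of libraries, 11 had a correlation of deviations over 0.1 (range -0.167 to 0.275, median 0.0096), and 16 matched best with their own number. This does not exclude pairing for single genes. In all 6 groups ADAMTS1 was highest in library 14 and lowest in 12, MMP9 highest in 12, and MMP2 and ADAMTS7 lowest in 14. With the replicate block, 2 members were called higher at 4 h, 2 higher in control from 4 h to 24 h, and 5 higher and 2 lower in control from 24 h to 48 h. The block also called ADAMTS1 and MMP9 lower at 4 h (edgeR adjusted p = 0.000603 and 0.00291).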
